A study of Mus musculus with 2 samples.

Results

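The genes described here encode the molecular chaperones of the cytosol and the mitochondrion and their helper proteins, compared between 2 clones of the mouse embryonic stem cell line E14tg2a. They were chosen by gene symbol: the Hspa, Hspb, Hspd, Hspe, Hsph, Hsp90a, Dnaj and Bag families, Tcp1 and Cct2 to Cct8, and the co-chaperone genes Stip1, Ahsa1, Fkbp4, Ptges3 and Chordc1. The ER members Hspa5, Hspa13, Dnajb9, Dnajb11, Dnajc1, Dnajc3 and Dnajc10 were left out. The rule found 141 probe sets for 73 genes, of 12393 genes named by probe sets of a single gene. Each gene was represented by its brightest probe set, judged on the mean of the arrays. The shDAB2 clone (clone 4 of hairpin 285) was stably transfected with a plasmid for a short hairpin RNA against Dab2, an endocytic adaptor gene, and the vector clone (clone 9) carried the control plasmid. Both grew under the same normal conditions in serum (10%) and LIF (1000 U/ml), the cytokine that keeps these cells undifferentiated. Each group is 1 clone on 1 Affymetrix 430A array, so there is no replicate, no test across samples and no p-value, and clone, culture and hairpin cannot be told apart.

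Chaperones bind proteins that are not fully folded. HSP70 proteins hold exposed stretches of a client and release it in a cycle driven by ATP: J proteins (the Dnaj genes) deliver clients and start the cycle, while HSP110 and BAG proteins exchange the nucleotide. HSP90 acts later on kinases, receptors and other clients, in a cycle ordered by its co-chaperones. The CCT chaperonin is a barrel of different subunits that folds actin and tubulin, mitochondria use HSP60 (Hspd1) with its lid HSP10 (Hspe1), and small heat shock proteins hold aggregating proteins without ATP. Many of these genes are induced by the transcription factor HSF1. Embryonic stem cells are known for high chaperone levels.

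Values are deposited log2 expression values from RMA, and a difference is always the shDAB2 value minus the vector value. A floor was set at 6.62, which is the median value of the whole table, and a gene passed it if at least 1 array read that much. This held for 7269 genes in all and for 52 of the 73 chaperone genes, 51 of them on both arrays. Hspb11 passed in the vector clone only, so its inclusion itself favours a negative difference. Levels of different genes come from different probes and are not compared. The targeted gene, Dab2, read 6.33 in the shDAB2 clone against 6.64 in the vector clone on its brightest probe set, a difference of -0.31. This probe set passed the floor on the vector array only, and the other probe sets, below it on both arrays, gave -0.05 and -0.01. All 10 stem cell markers examined, Pou5f1, Sox2 and Nanog among them, lay above the floor, at 7.11 to 12.37, with a median difference of 0.07 and a range from -0.24 for Esrrb to 0.61 for Fgf4, which is wider than that of the chaperone genes on the higher side. Of 19 markers of fibroblasts, primitive endoderm, neural cells and mesoderm, 17 lay below it on both arrays, and the exceptions were Dcn (6.62 and 6.55 in the shDAB2 and vector clones) and Nes (7.65 and 7.73).

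Heat shock elements, the sites that HSF1 binds, were looked for in the promoter windows of these genes, because HSF1 is a known regulator of many of these families. The windows are RefSeq's for GRCm38.p6, from 250 bases before to 50 after each annotated gene start, and 60 of the 73 genes had one. The element was spelled as 3 inverted units, GAANNTTCNNGAA or TTCNNGAANNTTC, which are each other's reverse complement, so both strands were covered. Of 32851 mouse promoter windows 198 held it, which is 0.603%, and it stood in a window of 0.662% of all genes that had one, against 5 of the 60 chaperone genes, or 8.33%. These were Hsph1, Hspd1, Hspe1, Chordc1 and Dnajb6. Hspd1 and Hspe1 lie head to head: 285 bases of their windows are the same DNA read from opposite strands and hold the same matches. The windows are printed 5′ to 3′ on the strand of the gene, with every base of a 3-unit match in capitals.
Hspe1 and, on the other strand, Hspd1 (chr1:55087898-55088197, plus strand): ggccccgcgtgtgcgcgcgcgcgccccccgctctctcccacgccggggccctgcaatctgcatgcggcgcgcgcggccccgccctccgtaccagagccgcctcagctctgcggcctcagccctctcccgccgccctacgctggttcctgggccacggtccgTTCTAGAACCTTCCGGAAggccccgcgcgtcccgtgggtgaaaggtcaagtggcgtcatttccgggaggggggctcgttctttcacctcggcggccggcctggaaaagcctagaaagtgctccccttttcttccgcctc
Hsph1 (chr5:149636266-149636565, minus strand): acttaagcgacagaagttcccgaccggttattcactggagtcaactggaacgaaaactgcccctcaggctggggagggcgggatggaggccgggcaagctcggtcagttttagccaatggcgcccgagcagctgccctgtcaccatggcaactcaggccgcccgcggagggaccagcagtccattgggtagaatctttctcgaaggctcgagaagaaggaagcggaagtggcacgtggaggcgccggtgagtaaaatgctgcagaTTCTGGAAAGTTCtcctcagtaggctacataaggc
Chordc1 (chr9:18292017-18292316, plus strand): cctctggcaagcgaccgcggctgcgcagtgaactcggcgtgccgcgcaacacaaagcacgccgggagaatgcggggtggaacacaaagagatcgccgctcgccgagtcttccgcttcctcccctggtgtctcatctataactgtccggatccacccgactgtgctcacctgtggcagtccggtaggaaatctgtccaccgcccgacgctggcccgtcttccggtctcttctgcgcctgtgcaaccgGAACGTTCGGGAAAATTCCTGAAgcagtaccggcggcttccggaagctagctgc
Dnajb6 (chr5:29735648-29735947, plus strand): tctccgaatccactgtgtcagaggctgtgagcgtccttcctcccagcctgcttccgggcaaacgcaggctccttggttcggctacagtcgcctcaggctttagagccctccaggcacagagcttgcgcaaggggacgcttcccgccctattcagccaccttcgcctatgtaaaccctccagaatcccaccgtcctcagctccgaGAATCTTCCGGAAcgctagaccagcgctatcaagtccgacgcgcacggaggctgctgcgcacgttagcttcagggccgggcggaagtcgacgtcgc

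Chaperone genes as a whole differed little between the clones. Of the 52 above the floor 30 were higher in the shDAB2 clone (57.7%), 21 were lower and 1 did not differ. A difference above 0 was found for 50.0% of all genes above the floor. The median of the chaperone genes was 0.03 on the log2 scale, against 0.00 for all genes, and the differences had an SD of 0.18, against 0.22 for all genes. Only Ahsa1 was at least 1.3-fold higher (a log2 difference of 0.38), 1 of 52 or 1.92%, where the background was 3.07%, and 0 were 1.3-fold lower, where the background was 4.35%. At a limit of 1.2-fold (0.26) 6 genes were higher, or 11.5%, against 7.97% of all genes, and 1 was lower, or 1.92%, against 8.80%. The shares past either limit were thus near or under the background. In cultures profiled in bulk, fewer cells of a type and less RNA per cell cannot be told apart. The 6 higher genes were Ahsa1, Hspa14, Hsph1, Dnaja2, Dnajb1 and Dnajc11, and the lower one was Hspb2. The role groups spread around this middle: the medians ran from 0.24 for HSP110 to -0.20 for the genes with Hspb symbols. The HSP110 median rests on 2 genes. Without probe sets of the kinds that can match several transcripts (suffixes _s_at, _x_at and _a_at), only Hspa4 was left in this group, at 0.13. The mitochondrial group then had the highest median, at 0.21.

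**Figure D1:**
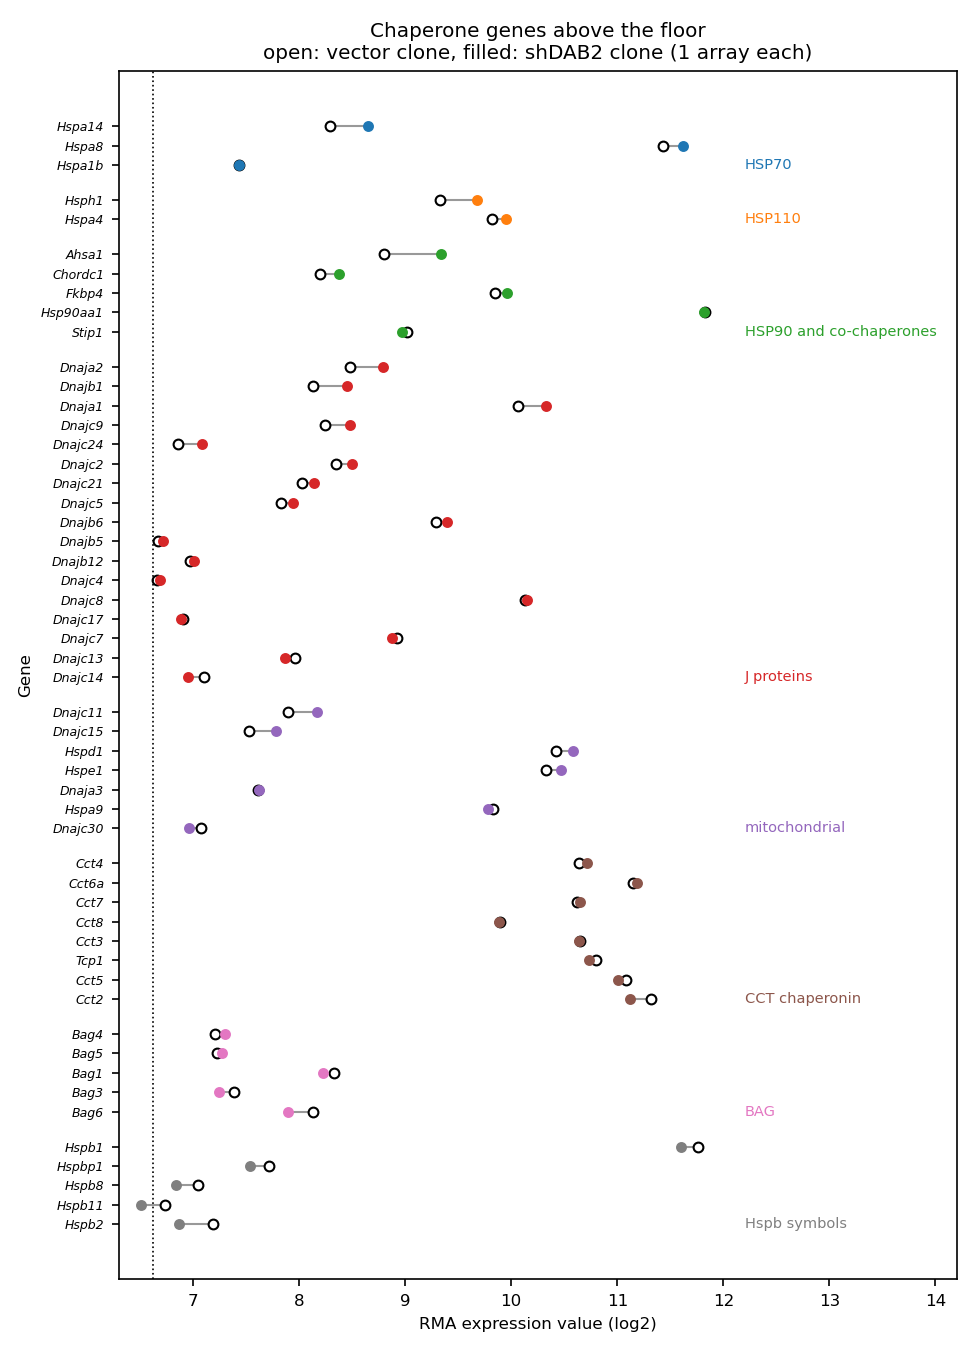
RMA expression values (log2, x axis) of the 52 chaperone genes above the floor (y axis, by role group), with open circles for the vector clone, filled circles for the shDAB2 clone, 1 array each, and a dotted line at the floor of 6.62. The longest connecting line is that of Ahsa1, and the filled circle lies left of the open one in all 5 genes with Hspb symbols. Among these, Hspb11 passed the floor in the vector clone only.

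**Figure D2:**
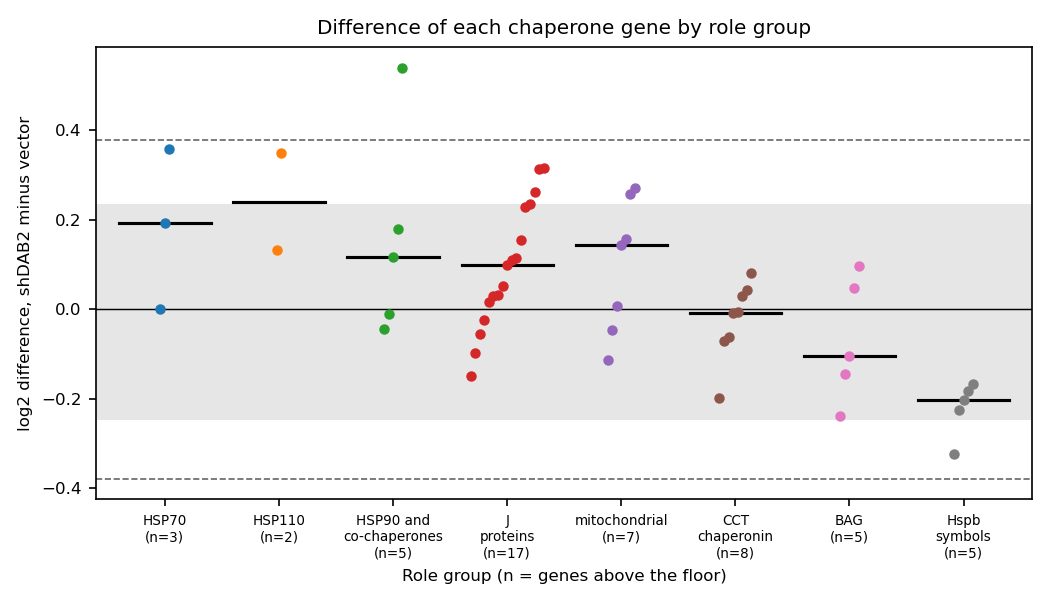
Log2 difference (shDAB2 minus vector, y axis) of each chaperone gene above the floor by role group (x axis), with a bar at the group's median, grey shading from the 10th to the 90th percentile of all genes above the floor (-0.25 to 0.23) and dashed lines at 1.3-fold. Only Ahsa1 lies past a dashed line, and the CCT genes lie within 0.20 of 0.

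In the cytosolic HSP70 group 3 of 7 genes lay above the floor, 2 of them higher in the shDAB2 clone and 1 level, with a median of 0.19, or 0.033 when the dim genes are counted. Hspa8, which encodes the constitutive HSC70, read 11.62 in the shDAB2 clone against 11.43 in the vector clone, a difference of 0.19 or 1.14-fold. Its other probe sets gave 0.14, 0.28 and 0.15, and the last of these passed the floor in the shDAB2 clone only, which favours a positive value. Of its probe sets 3 of the 4 are of the kinds that can match several transcripts. Hspa14, whose protein binds ribosomes together with that of Dnajc2 and assists new chains, read 8.65 and 8.29, which is 0.36 or 1.28-fold higher. That difference exceeded those of 96.3% of genes above the floor, while its second probe set, below the floor, gave 0.11. The stress-induced Hspa1b read 7.44 on both arrays, a difference of 0.00, with 0.16 and 0.12 on its other probe sets. Its near-identical copy Hspa1a lay below the floor at 6.35 and 6.25, and probes of this pair can pick up both transcripts, so the pair is uncertain. The remaining HSP70 genes, Hspa2, Hspa1l and Hspa12b, lay below the floor and differed by 0.00, 0.03 and 0.01.

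Both HSP110 genes above the floor were higher, on every probe set. Hsph1, which encodes HSP105, a nucleotide exchange factor of HSP70, read 9.67 in the shDAB2 clone against 9.33 in the vector clone. This is a difference of 0.35 or 1.27-fold, with 0.16 on the second probe set. Hspa4 read 9.95 and 9.82, a difference of 0.13, and its dimmer probe sets gave 0.21 and 0.36. The 5 HSP110 probe sets above the floor were all positive, with a median of 0.21. Hspa4l, a relative best known from testis, lay below the floor (-0.02).

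HSP90 itself read nearly the same in both clones, while an activator of it had the largest difference of all the chaperone genes. Hsp90aa1 read 11.82 in the shDAB2 clone against 11.83 in the vector clone, a difference of -0.01, with -0.09 and 0.09 on its other probe sets. No probe set named for Hsp90ab1 was at hand, so the constitutive isoform is not analysed here. Ahsa1, which encodes the co-chaperone that speeds up the ATPase of HSP90, read 9.34 against 8.80. The difference of 0.54, or 1.45-fold, exceeded those of 99.1% of all genes above the floor. The 500 genes nearest to it in signal had an SD of 0.32, and Ahsa1 had no second probe set on the array that could repeat the measurement. The other co-chaperones differed less. The HSP90 co-chaperone gene Chordc1 read 8.38 and 8.20 (0.18), and the immunophilin gene Fkbp4 read 9.96 and 9.84 (0.12, with 0.11 on its second probe set, which passed the floor in the shDAB2 clone only). Stip1, whose protein HOP bridges HSP70 and HSP90, read 8.97 and 9.02 (-0.04). The probe sets of Ptges3, the p23 gene, are annotated to a further gene as well and so fell outside the rule.

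Among the J proteins outside the mitochondrion, 17 of 29 genes passed the floor, 13 of them higher and 4 lower in the shDAB2 clone, and their median was 0.10, which fell to 0.03 with the dim genes counted and to 0.06 after cyclic loess scaling. The general HSP70 partners of classes A and B that passed were all higher. Dnaja2 read 8.79 in the shDAB2 clone against 8.48 in the vector clone, a difference of 0.32 or 1.24-fold, but only 0.06 on its second probe set. Dnaja1 read 10.33 and 10.06, and its probe sets agreed more closely at 0.26 and 0.21. Dnajb1, the HSP40 gene and a classic HSF1 target, read 8.45 and 8.14, with 0.31 and 0.19 on its probe sets. The anti-aggregation gene Dnajb6 read 9.39 and 9.29, a difference of 0.10, yet its dimmer probe sets gave 0.40, 0.20 and -0.004. The last class B genes above the floor, Dnajb5 (0.05) and Dnajb12 of the ER membrane (0.03), hardly differed.

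Class C, in which the J domain is joined to many other functions, was mixed: 7 of its 11 genes were higher and the median was 0.03. The largest positive difference was that of Dnajc9, a histone chaperone gene, at 8.48 in the shDAB2 clone against 8.25 in the vector clone (0.23). Dnajc24, of diphthamide synthesis, read 7.08 against 6.85 (0.23, with 0.13 on the second probe set, which lay below the floor). Dnajc2, the ribosome-bound partner of Hspa14, read 8.50 against 8.35 (0.15, with 0.08 on the second). Next came Dnajc21 of ribosome assembly at 0.11 and Dnajc5, the cysteine string protein gene, at 0.11. The other probe sets of Dnajc5 gave 0.01, 0.11, 0.04 and -0.14. The lower genes were Dnajc14 (6.95 against 7.11, or -0.15), the endosomal Dnajc13 (-0.10), Dnajc7 (-0.05) and the splicing factor gene Dnajc17 (-0.02). Dnajc8 and Dnajc4 differed by 0.02 and 0.03.

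In the mitochondrion the chaperonin genes were a little higher and the HSP70 gene was level. All 7 mitochondrial genes lay above the floor, 5 higher and 2 lower, with a median of 0.14. Hspd1, which encodes HSP60, read 10.58 in the shDAB2 clone against 10.42 in the vector clone, and Hspe1, its HSP10 lid, read 10.47 and 10.33. The differences of this head-to-head pair were close, at 0.16 and 0.14, although the second probe set of Hspe1 gave 0.37. Hspa9, the mitochondrial HSP70 gene of protein import and folding, read 9.78 and 9.83, a difference of -0.05. Its other probe sets gave 0.05, 0.06 and, below the floor, 0.02. Its J partner Dnaja3 differed by 0.01. Dnajc11, of the outer membrane and crista contacts, read 8.17 against 7.90 (0.27), but 0.00 on its second probe set. Dnajc15, a J protein of the import motor, read 7.78 against 7.53 (0.26), and Dnajc30 read 6.96 against 7.08 (-0.11).

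The CCT chaperonin was the most even group among those with over 5 genes above the floor. The 5 genes with Hspb symbols spread less, with an SD of 0.06, but around a median of -0.20. The 8 measured subunit genes of the somatic complex were bright, at 9.89 to 11.32, and their differences ran only from -0.20 to 0.08 with a median of -0.01 and an SD of 0.09. The 500 genes nearest in signal to Tcp1 had an SD of 0.29. By gene the differences were -0.06 for Tcp1, -0.20 for Cct2, -0.01 for Cct3, 0.08 for Cct4 and -0.07 for Cct5. They were 0.04 for Cct6a, 0.03 for Cct7 and -0.01 for Cct8. Cct2 was thus the lowest, at 11.12 in the shDAB2 clone against 11.32 in the vector clone, with -0.03 and -0.10 on its other probe sets. The evenness did not extend to all probe sets: second probe sets gave 0.31 for Cct3, 0.31 for Cct6a and -0.13 for Cct4, and the 20 CCT probe sets above the floor split into 10 positive, 1 of which passed the floor in the shDAB2 clone only, and 10 negative. The testis gene Cct6b lay below the floor (-0.01).

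BAG genes were mixed. Of the 5 that passed the floor 3 were lower and 2 higher in the shDAB2 clone, with a median of -0.11. Without shared-transcript probe sets, which leaves out Bag6, the median was -0.03. Bag6, which guards proteins bound for membranes, read 7.90 in the shDAB2 clone against 8.14 in the vector clone, a difference of -0.24 or 1.18-fold lower. The stress-induced Bag3, whose protein joins HSPB8 and HSP70 in selective autophagy, read 7.24 and 7.39 (-0.14). Bag1 read 8.22 and 8.33 (-0.11), Bag4 7.30 and 7.21 (0.10, with 0.13 on its second probe set) and Bag5 7.28 and 7.23 (0.05). Bag2 lay below the floor, at 6.42 against 6.57.

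Each of the 5 genes with Hspb symbols that passed the floor was lower in the shDAB2 clone, and so were all 8 of their probe sets that passed it. Hspb11 is counted among them although it passed in the vector clone only, which favours a negative value. Of all 7269 genes above the floor 3585 were lower. Of the 5 genes with Hspb symbols 3 encode small heat shock proteins. Hspb1, which encodes HSP27 and is bright in these cells, read 11.60 in the shDAB2 clone against 11.77 in the vector clone, a difference of -0.17, with -0.13 on the second probe set. Hspb8 read 6.84 and 7.04, and its 3 probe sets gave -0.20, -0.20 and -0.24. Hspb2 read 6.87 and 7.19, which is -0.32 or 1.25-fold lower on its only probe set. The other members carry the letters but act otherwise: Hspbp1, an exchange factor of HSP70, read 7.54 and 7.72 (-0.18), and Hspb11, a transport protein of cilia, read 6.51 and 6.74 (-0.23). The median was -0.20, and larger single differences were not rare: 8.80% of all genes above the floor were at least 1.2-fold lower. Hspb3 and Hspb7 lay below the floor (-0.04 and 0.03).

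The alpha-B crystallin gene Cryab is a small heat shock protein gene without an Hspb symbol and stood further apart. It read 7.01 in the shDAB2 clone against 7.67 in the vector clone, a difference of -0.66 or 1.58-fold lower, with -0.61 on its second probe set. The third Cryab probe set, below the floor on both arrays, gave 0.07. In the RefSeq gene table the span of Hspb2 lies within that of Cryab. Whether the lower values of Hspb2 and Cryab are linked was not tested. Cryab belongs to a list of HSF1-inducible genes outside the symbol rule, of which 5 genes were above the floor, 1 higher and 4 lower. Serpinh1, the collagen chaperone of the ER, read 7.66 against 8.49 (-0.83, with -1.06 on its second probe set), and the autophagy receptor gene Sqstm1 read 8.73 against 9.34 (-0.61 on its only probe set). These 3 were the ones past 1.3-fold, so the list's median was -0.61, where 4.35% of all genes were as far down as 1.3-fold, but the list was drawn up with earlier results of these arrays known. Hmox1 differed by 0.17 and Atf3 by -0.21. Brightest probe sets of all 3 large differences carry suffixes of shared-transcript probes. Without such probe sets only Hmox1 and Atf3 were left above the floor, with a median of -0.02.

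The 5 genes with a 3-unit heat shock element in their promoter window were all higher in the shDAB2 clone, by 0.10 to 0.35 with a median of 0.16. Of the 37 chaperone genes above the floor whose windows lacked it, 19 were higher, with a median of 0.01. Among all genes above the floor the share was 50.0%. Hspd1 and Hspe1 hold the same matches in shared DNA, so the 5 genes are not 5 separate promoters. The windows of Hspe1, Hsph1, Chordc1 and Dnajb6 are those printed above. Higher values were not the rule among other genes with the match. Of 36 other genes above the floor whose window held it, 14 were higher (38.9%), with a median of -0.02. Chaperone genes whose longest match was 2 units (GAANNTTC or TTCNNGAA, found in 15.1% of all windows) numbered 9 above the floor, 3 of them higher, with a median of -0.07. Hspb1, Hspb8, Bag3, Cct2 and Cct5 were lower, and Hspa1b did not differ. The higher ones were Dnaja1 (0.26), Fkbp4 (0.12) and Cct6a (0.04). Of 804 other genes above the floor with a match of at least 2 units, 429 were higher (53.4%). Of the 28 without a match 16 were higher, with a median of 0.02 and Ahsa1 at the top. The HSF1 target Dnajb1 was among these 28, so the match does not mark all targets of HSF1.

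**Figure D3:**
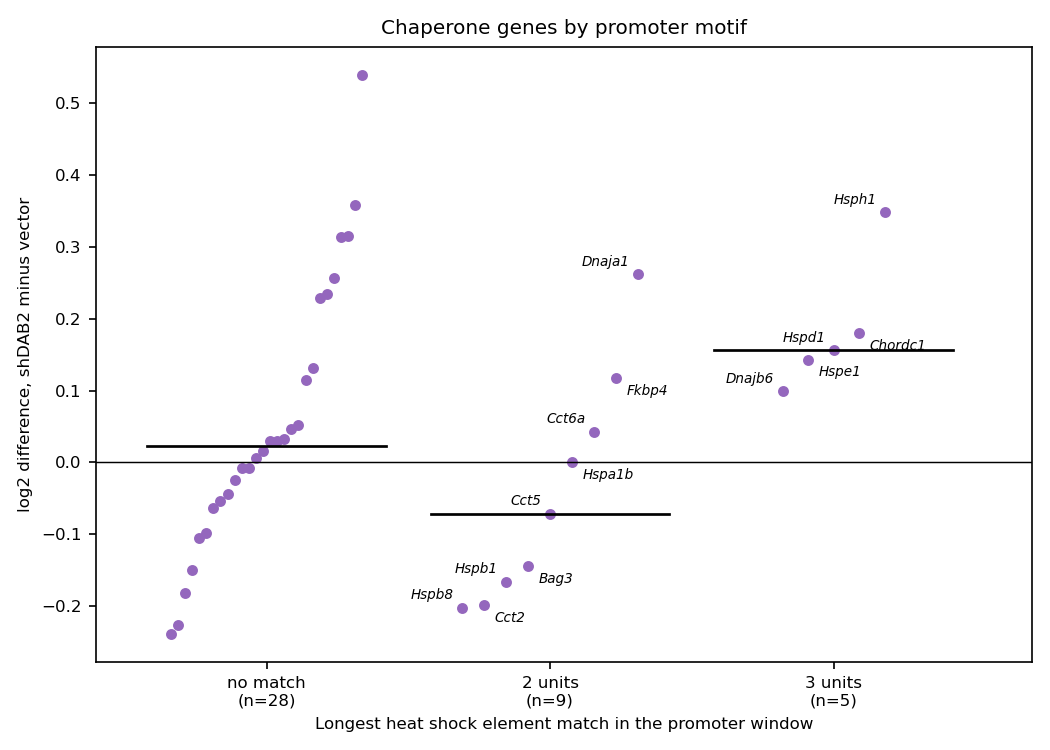
Log2 difference (shDAB2 minus vector, y axis) of chaperone genes above the floor that have a promoter window, by their longest heat shock element match (x axis), with a bar at each median. The 5 genes with 3 units, of which Hspd1 and Hspe1 share their matches, lie between 0.10 and 0.35, within the range of the 28 genes without a match.

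Repeat probe sets are the only repeat measurement in these data. They share the RNA sample and the array, so they show probe noise and transcript variants but not variation between cultures. Of the 24 chaperone genes with a second probe set above the floor, 19 had the same sign on both, and 18 of 23 had it when both probe sets had to pass on both arrays, which leaves out Fkbp4. Where the brightest probe set differed by at least 0.1 in size, the sign was the same in 13 of 14 genes, or 12 of 13 without Fkbp4, the exception being Dnajc11, at 0.00 on its second. The SD of a single probe set was 0.12 for these genes, close to the 0.11 of all 2502 genes with a pair. The gap between probe sets was over 0.2 in 7 genes: Cct3, Dnajb6, Dnajc11, Cct6a, Dnaja2, Hspe1 and Cct4. Differences of 0.1 to 0.3 on a single probe set are thus of the size of the gaps seen between probe sets.

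**Figure D4:**
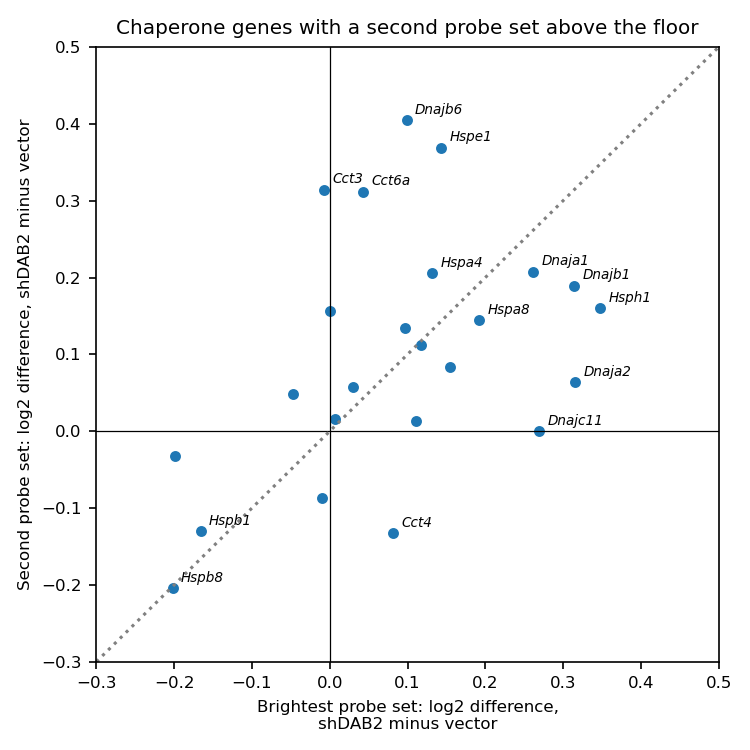
Log2 difference (shDAB2 minus vector) of the brightest probe set (x axis) and of the next brightest (y axis) for the 24 chaperone genes that have both above the floor, with a dotted line of equality. Hspb1 and Hspb8 lie below 0 on both, Hspa8, Hsph1, Dnaja1 and Dnajb1 above 0 on both, and Dnajb6, Cct3 and Cct6a far above the line.

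Lists of genes that work with these chaperones had medians within 0.10 of 0, apart from the regulators and the ER chaperones, but some of these medians moved or turned with the choice of probe sets. Of the regulators of the response, Hsf2 lay below the floor (-0.05), Hsbp1 and Hikeshi stood at 0.22 and 0.19, a median of 0.21, and no value for Hsf1 was at hand. Among 17 partners of HSP70 and HSP90 that passed the floor 11 were higher, 6 were lower and the median was 0.05, 1 gene past 1.2-fold upward and 0 downward. It was Ruvbl1, of an HSP90-linked assembly complex, at 0.28. Sgta stood at -0.22 and Cacybp at 0.21. The prefoldin subunits and other CCT partners had 6 of 10 higher and a median of 0.03, with Pfdn1 at -0.30, Pdcl3 at -0.28 and Pdrg1 at 0.27. Actin and tubulin genes, whose proteins CCT folds, had 3 of 10 higher and a median of -0.08, which turned to 0.02 without shared-transcript probe sets. Tuba4a was the exception at 10.21 against 9.59, a difference of 0.62 with 0.50 on its second probe set, beside Tubb6 at -0.28 and Tubb4b at 0.22. The tubulin cofactors had a median of -0.09 over 6 genes, with Arl2 at -0.19, Tbcb at 0.18 and Tbcd at -0.18. Mitochondrial import and protease genes had 9 of 21 higher and a median of -0.02. Among them were the import receptor gene Tomm22 at 0.39 (0.03 on its second probe set), the protease gene Clpp at 0.34 (0.09) and the HSP90 gene Trap1 at -0.31 (-0.12). Nascent chain and ubiquilin genes split 3 to 3, with a median of 0.02 that became 0.18 without shared-transcript probe sets and -0.02 with the mean of all probe sets, Ubqln4 at 0.19, Zfand2a at 0.18 and Ubqln1 at -0.17. The ER chaperone genes that the rule left out, with Hsp90b1 and Hyou1, were higher in 6 of 6 cases with a median of 0.22. Hspa5 led them at 10.71 against 10.06 (0.65), beyond any of the cytosolic and mitochondrial genes.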

How the data were processed

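Total RNA of each clone was labelled from 10 µg and hybridised to an Affymetrix mouse 430A array, per the labels' protocols. The authors deposited log2 values for each probe set on each array, which they made with RMA, per the submitters' processing notes. RMA subtracts background, quantile-normalizes and summarises the probes; its version, and whether further arrays were normalized with these, are not stated. No source states the log base either, and log2 was taken because RMA writes it. The number of arrays limits the precision.

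Of 22626 probe sets, the 20380 named for a single gene in the platform annotation were used, and the gene IDs of 73 of 73 chaperone genes matched RefSeq (GRCm38.p6). Groups were taken from the sample titles. Python 3.11.15 and pandas 2.3.3 computed differences, counts and medians, and limma 3.58.1 in R 4.3.3 the cyclic loess alternative. The procedure was tested on simulated arrays with planted differences and less noise than was seen between probe sets here. That test does not show how reliable the small differences in these data are. A difference of exactly 0 was found for 48 genes above the floor. The members, lists and limits were chosen with earlier results of these data known. Values on both arrays were planned for each member past 1.3-fold, for the 4 largest differences of each role group and for 12 genes listed by name. Not all are printed: Tcp1, Cct4 and Cct5, for example, are given by difference only, and Hsp90ab1 had no probe set. Each neighbour list gives up to 3 genes with its largest differences. Hmox1, Atf3, Hsp90b1, Hyou1, Dcn, Nes, Esrrb and Fgf4 were named after their values were seen. Alternatives changed the probe set rule, the floor, the scaling and the fold limit. Protein motifs that had been planned were not analysed here.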

Additional observations from a re-analysis of the deposited data

How the results depend on the processing

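A looser limit of 1.2-fold counted, by its construction, 6 chaperone genes as higher and 1 as lower, and a limit of 1.5-fold counted 0 and 0. Ahsa1 was the 1 gene at least 1.3-fold higher, and the lower count was 0, under each of the 6 alternatives in probe set rule, floor and scaling. The HSP110 median moved from 0.24 to 0.13 without _s_at, _x_at and _a_at probe sets, where Hspa4 alone was left. With no floor, which adds dim genes, it was also 0.13, and the HSP70 median moved from 0.19 to 0.033. The other 51 values for medians of role groups or of all members shifted less than 0.11, the SD of a single probe set, which is no smaller than several of these medians: that of the J proteins was 0.10, and 0.03 with no floor or 0.06 with cyclic loess. For the 52 chaperone genes above the floor and Hspa1a, 303 values moved by less than that and 10 by more. Hsph1, Bag6, Cct2, Hspb1 and Hspb2 had no probe set left without the shared-transcript kinds, so that setting could not check them. The sign turned with the mean of all probe sets for Cct3 (0.07), Cct4 (-0.05), Dnajb12 (-0.01), Dnajc17 (0.02) and Hspa9 (0.02), without shared-transcript probe sets for Cct3 (0.07), Cct4 (-0.13) and Dnajc17 (0.07), and with cyclic loess for Dnajc8 (-0.01). Of the list medians 4 values moved by more than 0.11: the HSF1-inducible list to -0.40 with the mean of all probe sets and to -0.02 without shared-transcript probe sets, and, also without them, the actin and tubulin list from -0.08 to 0.02 and the nascent chain list from 0.02 to 0.18. Smaller shifts turned the sign of the prefoldin list (-0.02 without shared-transcript probe sets, -0.01 with cyclic loess), the mitochondrial partners (0.02 with the mean) and the nascent chain list (-0.02 with the mean, -0.005 with cyclic loess). Leaving out shared-transcript probe sets also changed which genes were counted: 41 chaperone genes lay above the floor instead of 52. The nascent chain list then kept only Zfand2a, Ubqln2 and Ubqln4. Other causes of these shifts were not tested. No paired analysis was possible because each group holds 1 array. Differences of dim probe sets come out of RMA too small, which limits what genes near the floor can show.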

Other observations

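The 21 chaperone genes below the floor read between 5.997 and 6.62 on both arrays and differed by -0.16 to 0.22. They included tissue-restricted genes, such as the testis genes Dnajb3, Dnajb7, Dnajb8 and Dnajb13 (-0.07, -0.08, 0.08 and 0.00) and the muscle and heart genes Hspb3 and Hspb7. The largest difference among them was that of Dnajc12, whose protein assists the aromatic amino acid hydroxylases, at 6.49 in the shDAB2 clone against 6.27 in the vector clone.

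Probe sets annotated to 2 genes were left out by the rule. Those of Ptges3, the p23 co-chaperone of HSP90, read 10.56 in the shDAB2 clone against 10.63 in the vector clone (-0.07), and 10.01 against 10.02 (-0.02). Those of Dnajc19, a J protein of mitochondrial import, read 7.53 against 7.49 (0.04) and 6.29 against 6.14 (0.15).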
